A study of Rattus norvegicus with 9 samples.

Results

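The genes described here are 49 markers of brain cells outside the oligodendrocyte lineage, or of earlier neural stages, read in RNA from oligodendrocyte progenitor cells of newborn rats. They were chosen by name from the cell types they mark: 12 of microglia, 10 of astrocytes, 9 of neurons, 5 of endothelium, 5 of mural cells, 4 of fibroblasts, 3 of neural stem and progenitor cells, and Eno3, the muscle enolase. Of the 49, 45 had a probe with a single gene symbol on the array, out of 12167 genes measured in all, and these 45 genes had 65 probes. Rbfox3, Syt1, Cdh5 and Des had none and were not analysed here. The question put to the markers was how far each read above the dim end of its array, and whether that differed between the cell populations or between array numerals.

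The study is about refilins and filamins in oligodendrocyte progenitors, and its design sets each of 3 cell populations against the other two. The O4 population, per the labels, carried the O4 antigen and was negative for NG2. The NG2/A2B5 population carried both NG2 and A2B5, and the NG2 population carried NG2 only. All 3 were obtained from progenitors of newborn rats, each has 3 arrays numbered I, II and III, and the labels give no genetic change or drug treatment for any of them. The labels do not say how the populations were separated. The design text gives 3 cultures, but no label ties a numeral to a culture, so the p-values here measure the spread between these arrays, which may be technical. RNA was amplified from 10 ng in 2 rounds per the labels, which can weaken signal far from the 3′ end of a transcript.

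Oligodendrocyte progenitors are glial cells that divide in the newborn brain and mature into the cells that wrap axons in myelin. When they are prepared from brain tissue, microglia, astrocytes and vessel cells can be carried along, and marker genes of those cells are a usual check of a preparation. Several such markers are shared, because progenitors themselves make the intermediate filaments vimentin and nestin and some transporters and enzymes of astrocytes.

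Values are the authors' scaled probe intensities, which have no physical unit. Each array's 25th percentile over all of its probes, between 0.205 and 0.255 intensity units, served as a line for the dim end of that array, and the array medians lay between 1.05 and 1.07. Between 34926 and 34975 probes had a value on each array. Where a gene had several probes, the one whose mean log2 value was highest stood for it. Signal depends on the probe as well as on the RNA, so a reading on either side of the line is a property of that probe, and the intensities do not order the genes by amount of RNA. In bulk RNA of this kind, fewer cells of a type and less RNA per cell cannot be told apart.

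Markers of other cell types read lower on their arrays than genes at large. Of the 45 measured markers, 22 (48.9%) lay above the line on all 9 arrays, 16 on some arrays and 7 on none. Over all genes with 9 values, 74.0% lay above the line on all 9 and 2.72% on none. On any single array, between 27 and 32 of the 45 markers were above it. Against the array median, 10 markers (22.2%) lay above on all 9 arrays, compared with 59.5% of all genes.

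The oligodendrocyte lineage list showed that the arrays read progenitor RNA brightly, but not for every gene of the lineage. Of its 15 measured genes, 12 were above the line on all 9 arrays. Sox10, the transcription factor that defines the lineage, read between 29.7 and 47.6 intensity units, and Cspg4, which encodes the NG2 core protein, between 92.1 and 185. These ranges cover all 9 arrays, so the O4 arrays, labelled NG2 negative, also read at least 92.1 for Cspg4. In O4 against NG2, 0 of the 15 genes were called, and the largest log2 difference was 0.74 in size. Mag, a myelin glycoprotein gene, read between 8.77 and 16.8. Pdgfra, the growth factor receptor of progenitors, lay above the line on 8 of 9 arrays and Mbp, myelin basic protein, on 6. Genes of the lineage itself thus also gave dim readings, and whether the probe or the amount of RNA set them was not tested.

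Genes of other organs, such as liver, pancreas, muscle and testis, gave the opposite gauge, since they were listed for those organs. Whether brain cells make any of them was not tested. Of 24 listed, 19 were measured, and of these 7 (36.8%) lay above the line on all 9 arrays and 2 on none. The insulin gene Ins2 was also above the array median on all 9, at 3.26 to 6.12 intensity units. A reading above the line, or even above the array median, was thus also given by probes of such genes.

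**Figure D1:**
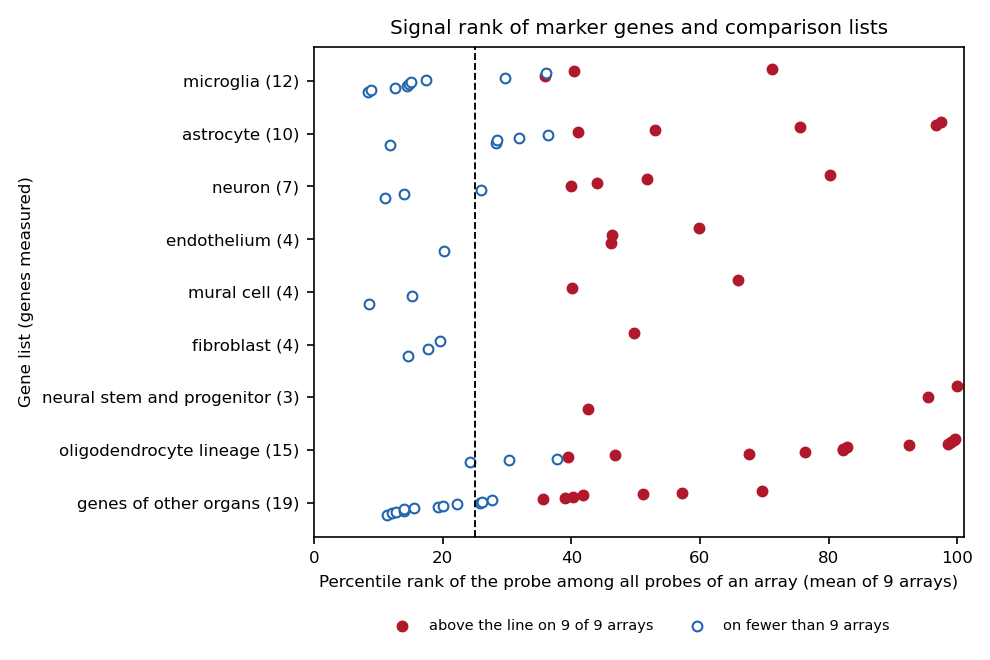
Percentile rank of each gene's probe among all probes of an array (x axis, mean of 9 arrays), by gene list (y axis, with the number of genes measured). Filled points lay above the 25th percentile of all 9 arrays and open points did not, and the dashed line is the 25th percentile. Eno3 is not drawn. The median rank was 16.3 for microglia markers, 25.8 for genes of other organs and 82.2 for the oligodendrocyte lineage list.

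Microglia are the resident macrophages of the brain, and their markers were the dimmest of the larger classes by this measure. The median percentile rank of the 12 was 16.3, against 65.5 for all genes. C1qa, C1qb and C1qc, the 3 chains of complement C1q, lay under the line on all 9 arrays. Between 1 and 2 arrays were above it for the leukocyte surface gene Cd53, the phosphatase Ptprc, the fractalkine receptor Cx3cr1 and the receptor Trem2. The receptor Csf1r, on which microglia depend, was above on 8 arrays and Aif1, the gene of the microglial protein Iba1, on 7, with the highest readings at 0.570 and 0.577 intensity units. The other probe of Csf1r was above the line on 1 array.

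Laptm5, Tyrobp and Itgam were the 3 microglia markers above the line on all 9 arrays. Laptm5, a lysosomal membrane protein of leukocytes, read 0.496, 0.834 and 0.928 on O4 arrays I, II and III, 0.627, 0.494 and 0.643 on the NG2/A2B5 arrays, and 0.473, 0.317 and 0.530 on the NG2 arrays, the order I, II and III being kept throughout. Tyrobp, an adaptor of immune receptors, read 0.482, 0.415 and 0.416 in O4, 0.442, 0.580 and 0.415 in NG2/A2B5, and 0.254, 0.328 and 0.485 in NG2. For both genes the populations overlapped, and each reading stayed under its array median.

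Itgam, the integrin chain known as CD11b, was the exception in its class. It read 6.50, 7.94 and 5.24 in O4, 5.42, 3.88 and 4.11 in NG2/A2B5, and 4.99, 5.18 and 4.08 in NG2, between 17.8 and 31.1 times the line. Each O4 array lay above each NG2 array, and O4 and NG2/A2B5 overlapped. Itgam made up most of the class total, which lay in O4 between 8.54 and 11.6 intensity units, in NG2/A2B5 between 6.35 and 7.85, and in NG2 between 6.68 and 7.58. Without Itgam the other 11 genes summed in O4 to between 2.64 and 3.66, in NG2/A2B5 to between 2.43 and 3.21, and in NG2 to between 1.99 and 2.60.

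Of 10 further microglia genes that are not among the 49, 3 lay above the line on all 9 arrays. The smallest p in that list belonged to Ctss, a lysosomal protease, lower in NG2/A2B5 than in NG2 by 1.43 on the log2 scale with a limma adjusted p of 1.0.

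**Figure D2:**
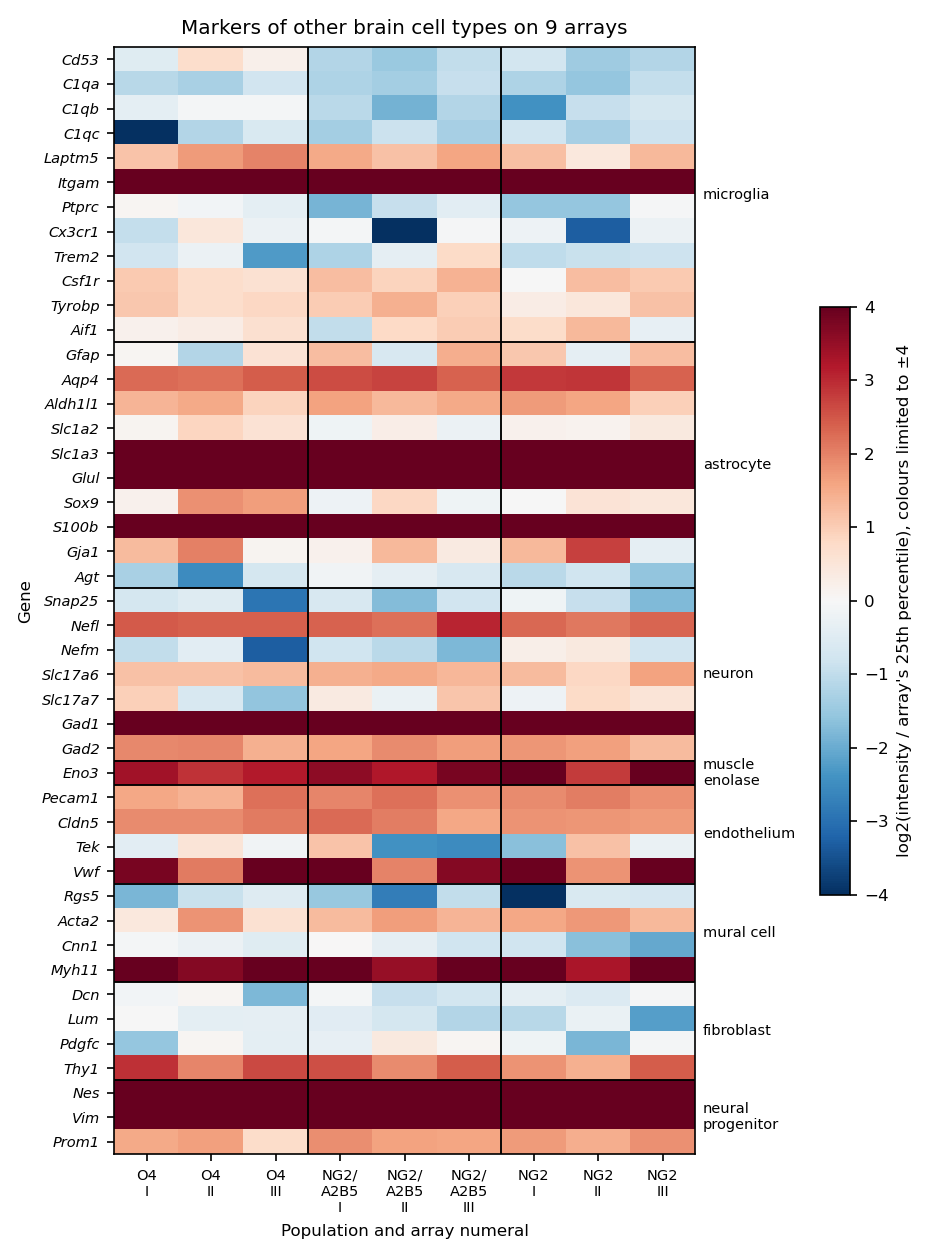
Log2 ratio of each marker's intensity to the 25th percentile of its array (colour, limited to ±4) for 45 genes (rows, by cell type) on 9 arrays (columns, by population and numeral). Blue cells lie under the line and red cells above it. C1qa, C1qb, C1qc, Agt, Snap25, Rgs5 and Lum are under the line in every column, and Itgam, Slc1a3, Glul, S100b, Gad1, Nes and Vim are far above it in every column.

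Astrocyte markers split into bright and dim genes. The transporter gene Slc1a3 (GLAST) read 62.5, 38.6 and 83.6 in O4, 52.1, 66.5 and 96.4 in NG2/A2B5, and 55.1, 70.7 and 71.8 in NG2. Glul, glutamine synthetase, read 85.0, 57.2 and 88.5 in O4, 83.6, 72.0 and 91.4 in NG2/A2B5, and 86.1, 65.1 and 66.9 in NG2. Both had a percentile rank of at least 92.7 on each array, and the populations overlapped. S100b, a calcium-binding protein that oligodendrocyte lineage cells also make, read 5.94, 7.08 and 8.29 in O4, 6.69, 6.31 and 7.77 in NG2/A2B5, and 7.19, 7.77 and 7.82 in NG2, again with overlap.

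The genes held to be more particular to astrocytes read lower on their arrays. Aqp4, the water channel of astrocyte endfeet, read 1.10, 1.18 and 1.27 in O4, 1.34, 1.42 and 1.11 in NG2/A2B5, and 1.44, 1.70 and 1.11 in NG2. The folate enzyme gene Aldh1l1 read 0.589, 0.724 and 0.438 in O4, 0.671, 0.536 and 0.623 in NG2/A2B5, and 0.661, 0.710 and 0.418 in NG2. Aqp4 was above each array median by a small margin and Aldh1l1 under each one, and neither separated the populations. Aqp4 had 2 other probes, which lay above the line on 4 and 2 of 9 arrays.

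Gfap, the intermediate filament of astrocytes, read 0.238, 0.113 and 0.352 in O4, 0.510, 0.139 and 0.597 in NG2/A2B5, and 0.430, 0.186 and 0.501 in NG2. All 3 arrays II lay under the line, all arrays I and III above it, and the populations overlapped. The gap junction gene Gja1 read 0.547, 1.03 and 0.253 in O4, 0.246, 0.532 and 0.274 in NG2/A2B5, and 0.508, 1.56 and 0.168 in NG2. Within each population Gja1 was highest on array II. The glutamate transporter gene Slc1a2 and the transcription factor gene Sox9 lay above the line on 7 and 6 arrays, with highest readings of 0.467 and 0.904, and the angiotensinogen gene Agt on none. The other probe of Slc1a2 was above it on 2 arrays.

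Of the neuron markers, 4 lay above the line on all 9 arrays, the enzyme gene Gad1 by a wide margin. Gad1, which makes the transmitter GABA from glutamate, read 12.1, 15.4 and 11.9 in O4, 11.7, 12.5 and 8.34 in NG2/A2B5, and 9.48, 10.8 and 6.06 in NG2, between 28.2 and 60.3 times the line. Each O4 array was above each NG2 array. Gad2, the other GABA-making enzyme gene, read 0.861, 0.981 and 0.633 in O4, 0.646, 0.806 and 0.683 in NG2/A2B5, and 0.700, 0.742 and 0.518 in NG2, with overlap, and its other probe lay under the line on all 9 arrays.

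Among the listed neuron markers, the structural and vesicular genes stayed near the array median or under it. Nefl, the light neurofilament, read 1.23, 1.34 and 1.23 in O4, 1.11, 1.0 and 1.80 in NG2/A2B5, and 1.0, 1.03 and 1.08 in NG2. Slc17a6, a vesicular glutamate transporter gene, read 0.509, 0.569 and 0.573 in O4, 0.581, 0.625 and 0.543 in NG2/A2B5, and 0.494, 0.424 and 0.653 in NG2, and both of its probes were above the line on all 9 arrays. Nefl was higher on each O4 array than on each NG2 array, while Slc17a6 overlapped between all populations.

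Nefm, the medium neurofilament, read 0.115, 0.190 and 0.0242 in O4, 0.125, 0.104 and 0.0617 in NG2/A2B5, and 0.243, 0.313 and 0.126 in NG2. It was above the line only on NG2 arrays I and II, and each NG2 array exceeded each NG2/A2B5 array. Snap25, a protein of synaptic vesicle release, was above the line on no array, and Slc17a7, the vesicular glutamate transporter of the cortex, on 5. Of 10 further neuron genes measured, 7 lay above the line on all 9 arrays and 5 above the array median on all 9. Their median percentile rank was 60.2, against 65.5 for all genes, so neuron genes outside the listed markers could read brightly.

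Eno3 encodes the muscle form of enolase. It read 2.31, 1.90 and 2.12 in O4, 2.64, 2.00 and 3.0 in NG2/A2B5, and 3.63, 1.64 and 3.60 in NG2. The populations overlapped, and array II was the lowest of each population.

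Among the vessel markers, Vwf stood out by numeral. Vwf, which encodes von Willebrand factor, the clotting protein stored in endothelium, read 3.15, 1.08 and 4.05 in O4, 3.57, 0.856 and 2.78 in NG2/A2B5, and 3.13, 0.817 and 3.85 in NG2. All 3 arrays II were lower than all other arrays. Pecam1 (CD31), an adhesion gene of endothelium, read 0.668, 0.675 and 1.09 in O4, 0.850, 0.995 and 0.770 in NG2/A2B5, and 0.765, 0.989 and 0.767 in NG2, and its other probe was above the line on 1 array. Cldn5, the tight junction gene of brain endothelium, read 0.852, 0.947 and 0.991 in O4, 1.05, 0.902 and 0.634 in NG2/A2B5, and 0.712, 0.802 and 0.695 in NG2.

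For Cldn5 each O4 array lay above each NG2 array, and Pecam1 overlapped. Tek, the angiopoietin receptor gene, was above the line on 3 arrays, and each of its 2 other probes on 2.

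Mural cells are the smooth muscle cells and pericytes around vessels. Myh11, smooth muscle myosin, read 4.26, 3.23 and 3.77 in O4, 4.01, 2.42 and 3.62 in NG2/A2B5, and 3.72, 2.27 and 3.42 in NG2, with array II lowest in each population. Its other probe was above the line on 4 arrays. Acta2, smooth muscle actin, read 0.302, 0.881 and 0.363 in O4, 0.524, 0.689 and 0.549 in NG2/A2B5, and 0.594, 0.796 and 0.527 in NG2, with array II highest in each population. Cnn1, the smooth muscle protein calponin, read 0.214, 0.218 and 0.169 in O4, 0.223, 0.169 and 0.124 in NG2/A2B5, and 0.117, 0.0736 and 0.0523 in NG2.

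The Cnn1 readings of NG2 all lay under those of the other populations, but only 1 of the 9 was above the line. Rgs5, a pericyte gene, was above it on no array.

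The 4 listed fibroblast markers were mostly dim. Thy1, a surface protein that fibroblasts share with neurons, read 1.71, 0.986 and 1.47 in O4, 1.31, 0.810 and 1.15 in NG2/A2B5, and 0.712, 0.628 and 1.15 in NG2. Its readings overlapped between populations, and its other probe was above the line on 5 arrays. Lum, the matrix proteoglycan lumican, read 0.225, 0.193 and 0.183 in O4, 0.160, 0.135 and 0.0955 in NG2/A2B5, and 0.0946, 0.197 and 0.0465 in NG2, all under the line. The proteoglycan gene Dcn was above the line on 1 array and the growth factor gene Pdgfc on 3, while the other Pdgfc probe was above it on 6, with a highest reading of 0.361.

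The stem and progenitor genes were bright for vimentin and nestin. Vim, the gene of vimentin, read 476, 589 and 428 in O4, 456, 526 and 422 in NG2/A2B5, and 436, 619 and 395 in NG2, at or near the top of each array. Nes, which encodes nestin, an intermediate filament of dividing neural progenitors, read 65.7, 69.2 and 38.3 in O4, 50.9, 64.5 and 37.7 in NG2/A2B5, and 57.4, 83.0 and 36.4 in NG2. In each population both genes were highest on array II and lowest on array III. Prom1 (CD133), a membrane protein of stem cells, read 0.646, 0.789 and 0.390 in O4, 0.800, 0.666 and 0.640 in NG2/A2B5, and 0.665, 0.649 and 0.762 in NG2, under the median of each array. Its other probe, above the line on 8 arrays, read up to 1.64 on array III of NG2/A2B5, over that array's median, and gave 1.69 in III minus II where the brighter probe gave -0.28, so its probes disagreed.

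Between populations, none of the 45 markers was called in the main fit, which left the numeral out. The limma fit over all genes (Benjamini-Hochberg adjusted p under 0.05) called 0 markers in O4 against NG2, where 0.0% of 12165 genes were called higher and 0.00822% lower, that is 1 gene. It called 0 markers in O4 against NG2/A2B5, with the same percentages, and 0 in NG2/A2B5 against NG2, where 0.0% of 12166 genes were called in either direction. At an unadjusted p under 0.05 the markers numbered 5, 5 and 1 in these 3 comparisons, against 8.0%, 3.28% and 4.48% of all genes. The 2 comparisons with O4 share the O4 arrays, and each pair of comparisons shares a population.

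O4 arrays held the higher reading for more markers than they held the lower one. In O4 against NG2, 28 of 45 differences were positive with a median of 0.16 on the log2 scale, where 51.9% of all genes were positive with a median of 0.02. In O4 against NG2/A2B5, 26 were positive with a median of 0.12, where the share over all genes was 53.2% and the median 0.02. Positive differences against NG2 were 4 of 10 for astrocyte markers, 4 of 7 for neuron markers, 3 of 4 each for endothelium, mural cell and fibroblast markers, and 2 of 3 for stem and progenitor genes. In NG2/A2B5 against NG2, 24 of the 45 were positive with a median of 0.03, against 48.4% and -0.01 over all genes. Genes of other organs also leaned to O4, with 13 of 19 positive against NG2 (median 0.35) and 16 of 19 against NG2/A2B5 (median 0.52).

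Some markers had arrays that did not overlap between populations. In O4 against NG2 they were 7 markers, all higher in O4, namely Cd53, C1qb, Itgam, Nefl, Gad1, Cldn5 and Cnn1. That is 15.6% of the 45 higher and 0 lower, where 7.51% of all genes were higher without overlap and 6.54% lower. In O4 against NG2/A2B5, Cd53, C1qb, Ptprc and Lum were higher without overlap (8.89%) and 0 lower, where the shares over all genes were 5.31% and 3.36%. In NG2/A2B5 against NG2, Agt and Cnn1 were higher (4.44%) and Nefm lower (2.22%), where the shares were 5.19% and 5.01%. The shares of markers higher in O4 were thus above those of all genes, and the shares lower in O4 were below them. For NG2/A2B5 against NG2 both shares were below those of all genes. Several of the genes named sat at the dim end. Cd53 and Nefm were above the line on 2 arrays each, Ptprc and Cnn1 on 1 each, and C1qb, Lum and Agt on 0.

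Most microglia markers read higher in O4, by differences that did not pass the test. Of the 12, 9 were positive in O4 against NG2 (median 0.40) and 8 in O4 against NG2/A2B5 (median 0.29), while 5 were positive in NG2/A2B5 against NG2 (median -0.04). Among 10 further microglia genes, 6 were positive against NG2 (median 0.46) and 4 against NG2/A2B5 (median -0.08). Over all genes, 51.9% were positive against NG2 and 53.2% against NG2/A2B5. Of the 19 genes of other organs, 13 and 16 were positive in these comparisons (medians 0.35 and 0.52). Among the 12, C1qa, C1qb, C1qc, Cd53, Ptprc, Cx3cr1 and Trem2 were above the line on at most 2 arrays. Most of the 12 signs thus came from dim readings.

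Cd53 read 0.163, 0.415 and 0.272 in O4, 0.0976, 0.0770 and 0.109 in NG2/A2B5, and 0.124, 0.0884 and 0.0965 in NG2. All 3 O4 arrays exceeded the other 6, and only O4 arrays II and III were above the line. On the log2 scale O4 averaged -1.92 ± 0.68, NG2/A2B5 -3.42 ± 0.26 and NG2 -3.30 ± 0.25 (SD, n = 3 each). The differences were 1.37 (SE 0.34, limma adjusted p 0.566) for O4 against NG2 and 1.49 (SE 0.34, limma adjusted p 1.0) for O4 against NG2/A2B5.

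C1qb showed differences of similar size, 1.30 and 1.34, with all of its readings under the line. C1qa, the companion chain, read 0.105, 0.104 and 0.138 in O4, 0.0923, 0.0843 and 0.113 in NG2/A2B5, and 0.0873, 0.0813 and 0.112 in NG2, which overlap. For Laptm5 the difference between O4 and NG2 was 0.76 (SE 0.29, limma adjusted p 0.601) with the brighter probe. The other Laptm5 probe, above the line on 5 arrays, gave -2.24, which rested on 1 reading near 0. It read 0.0026, 0.251 and 0.211 in O4 and 0.399, 0.120 and 0.302 in NG2, so it did not settle the direction. Itgam differed by 0.45 from NG2 and by 0.55 from NG2/A2B5, neither of which passed.

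**Figure D3:**
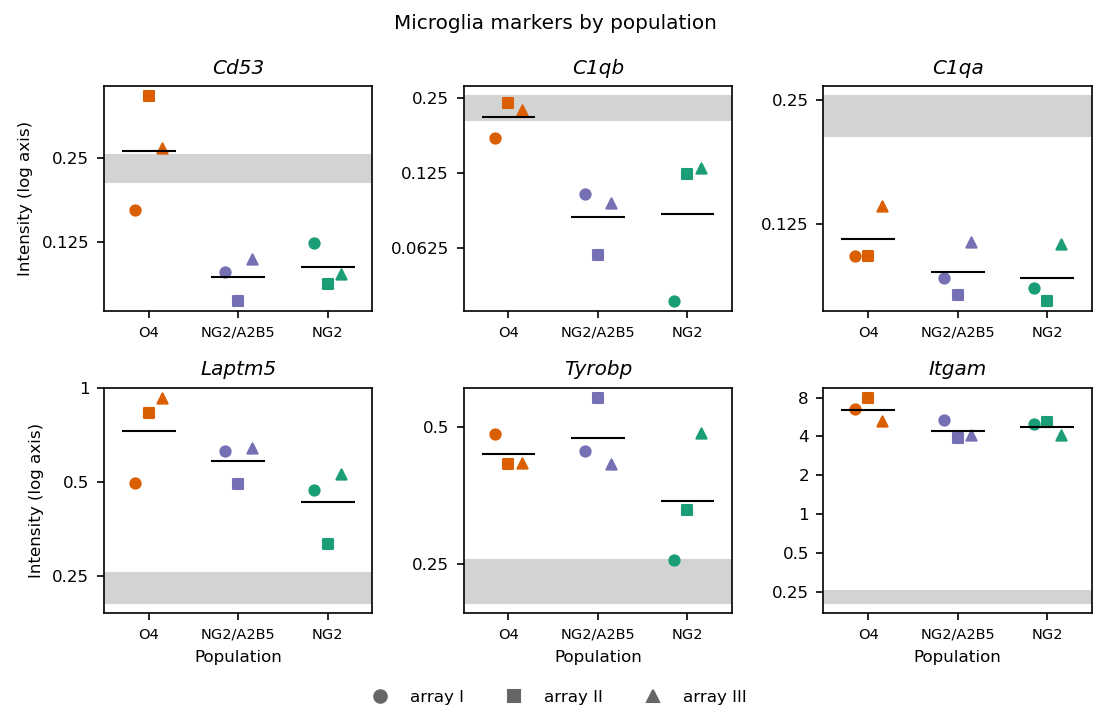
Intensity (y axis, log scale) of 6 microglia markers by population (x axis), with marker shapes for array numerals, a bar at the mean of the log values and a grey band over the 9 arrays' 25th percentiles (0.205 to 0.255). The O4 arrays of Cd53, between 0.163 and 0.415, lie above the other 6, and the readings of C1qa lie under the band in all populations.

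Outside microglia, the smallest population p belonged to Cnn1. It differed by 1.38 (SE 0.33) between O4 and NG2 and by 1.12 (SE 0.33) between NG2/A2B5 and NG2, with limma adjusted p-values of 0.561 and 0.970. Its other probe, above the line on 4 arrays, gave -0.95 for O4 against NG2. Thy1 differed by 0.76 (SE 0.32) and Gad1 by 0.62 (95% interval -0.00024 to 1.23) between O4 and NG2, and both had a limma adjusted p of 0.625.

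For the bright glial and progenitor markers the 95% intervals of the log2 difference between O4 and NG2 all held 0. They were -0.44 to 0.57 for Glul, -0.50 to 0.28 for S100b, -0.93 to 0.61 for Slc1a3, -0.45 to 0.56 for Vim and -0.86 to 0.87 for Nes. For Gfap the difference was -0.70 (95% interval -2.27 to 0.88) in this fit, which leaves the numeral out, while the numeral held 80.2% of the sum of squares of Gfap. On each numeral Gfap read lower in O4 than in NG2. The intervals of the bright markers came from the same fit, so they include the spread between numerals. The numeral held 90.7% of the sum of squares of Nes, 88.9% of Vim, 60.6% of Glul, 56.3% of S100b and 51.7% of Slc1a3.

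Between array numerals, a few markers did differ beyond the spread. With population in the model, the numeral F test called 82 of 12166 genes (0.674%), and 1 of the 45 markers, Vwf, with a limma adjusted p of 0.0346. The pairwise contrasts called 3 markers on arrays III against II, Vwf and Gfap higher and Nes lower, where 1.64% of all genes were called higher and 1.92% lower. They called Vwf alone on arrays I against II, where the shares were 0.14% and 0.0904%, and 0 markers on arrays III against I, where 0.0% of genes were called in either direction. At an unadjusted p under 0.05 there were 13 markers in the F test, against 21.5% of all genes, 13 in III against II (23.7%), 11 in I against II (17.2%) and 5 in III against I (12.6%).

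Vwf averaged 1.81 ± 0.30 on the log2 scale on arrays III, 1.71 ± 0.11 on arrays I and -0.14 ± 0.22 on arrays II (SD, n = 3 each). The difference III minus II was 1.95 (SE 0.19, limma adjusted p 0.0225), a fold of 3.86, and I minus II was 1.85 (SE 0.19, limma adjusted p 0.0454), a fold of 3.60. The other Vwf probe read 1.77, 1.17 and 2.14 on arrays III of O4, NG2/A2B5 and NG2, 1.86, 1.47 and 1.80 on arrays I, and 0.408, 0.456 and 0.546 on arrays II. That probe thus separated arrays II in the same way, with differences of 1.82 and 1.87. The numeral accounted for 96.1% of the sum of squares of Vwf over the 9 arrays and the population for 1.13%.

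None of the other endothelial markers passed the test between numerals. Pecam1 differed by -0.01 (95% interval -0.62 to 0.59) and Cldn5 by -0.22 (-0.72 to 0.28) in III minus II, and Tek by -0.82 with a wide interval (-3.94 to 2.30). Without Vwf, the 3 other endothelial genes summed to 1.44 to 2.29 intensity units on arrays III, 1.54 to 2.38 on arrays I and 1.94 to 2.32 on arrays II, which overlap. Of 8 further endothelial genes, 4 were positive and 4 negative in III minus II, and 0 were called. The smallest p among them was that of Esam, an adhesion gene, at -1.40 in I minus II (limma adjusted p 0.117).

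Gfap averaged -1.08 ± 0.39 on arrays III, -1.42 ± 0.58 on arrays I and -2.81 ± 0.36 on arrays II (SD, n = 3 each). III minus II was 1.72 (SE 0.19, limma adjusted p 0.0240), and I minus II was 1.39 (SE 0.19) with a limma adjusted p of 0.0687, which did not pass. Arrays II lay under the line, and with all readings raised to the line the III minus II difference was 1.0 (limma adjusted p 0.0410). Gfap has 1 probe, so no other probe could be set beside it.

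Nes averaged 5.23 ± 0.04 on arrays III, 5.85 ± 0.18 on arrays I and 6.17 ± 0.19 on arrays II (SD, n = 3 each). III minus II was -0.94 (SE 0.14, limma adjusted p 0.0415). Its other probe, also above the line on all 9 arrays, gave -0.95.

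Each of these calls was lost in every one of the 9 fits that left out 1 array. The limma adjusted p-values then ranged over 0.0559 to 0.121 for Vwf in III minus II, 0.0590 to 0.123 for Gfap and 0.0802 to 0.163 for Nes, with differences of 1.83 to 2.13, 1.51 to 1.84 and -1.03 to -0.82. For Vwf in I minus II they ranged over 0.117 to 0.210. Over all genes, those fits called at most 5 in III minus II and at most 3 in I minus II, where the main fit called 432 and 28. In the numeral F test they called at most 2.

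**Figure D4:**
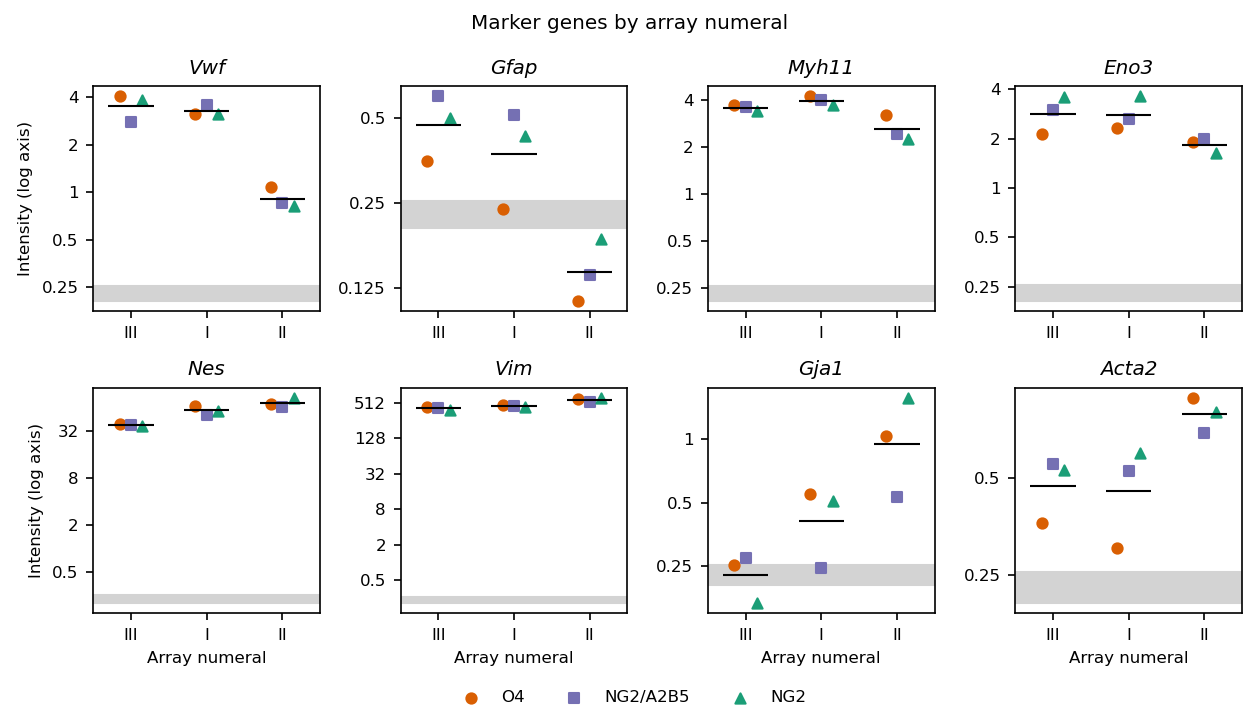
Intensity (y axis, log scale) of 8 markers by array numeral (x axis), with marker shapes and colours for population, a bar at the mean of the log values and a grey band over the 9 arrays' 25th percentiles. Vwf reads 2.78 to 4.05 on arrays III, 3.13 to 3.57 on arrays I and 0.817 to 1.08 on arrays II, and Nes reads 36.4 to 38.3, 50.9 to 65.7 and 64.5 to 83.0. Vwf, Gfap and Nes passed the test in III against II, and the other 5 passed in no contrast.

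Further markers besides Vwf, Gfap and Nes separated the numerals, without passing the test. Counting these 3 as well, on III against II, C1qa, Gfap, Slc1a3, S100b, Eno3, Vwf, Myh11 and Thy1 were higher without overlap (8 of 45, against 10.5% of all genes), and Gja1, Gad2, Acta2, Nes and Vim were lower (5 of 45, against 16.0%). On I against II, 5 were higher (Gfap, Glul, Eno3, Vwf and Myh11, against 6.79%) and 4 lower (Slc1a2, Sox9, Acta2 and Vim, against 14.8%). On III against I, C1qa, Slc1a3, S100b and Rgs5 were higher (10.2%) and Snap25, Nes and Vim lower (8.17%). Of the genes named, C1qa, Rgs5 and Snap25 were above the line on 0 arrays. By sign alone, 21 of 45 differences were positive in III minus II (median -0.01), where 43.1% of all genes were positive (median -0.08). In I minus II they were 16 (median -0.14), where the share was 38.5% (median -0.10), and in III minus I they were 25 (median 0.09), where it was 52.8% (median 0.02).

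Astrocyte markers did not move one way between numerals. Against the higher Gfap on arrays III, Gja1 differed by -2.06 (SE 0.43, limma adjusted p 0.0682) in III minus II, and its other probes gave -0.44 and 0.43. Slc1a3 differed by 0.56 and Glul by 0.34, and the class split into 5 positive and 5 negative differences. Of 9 further astrocyte genes, Aldoc, a glycolytic enzyme of astrocytes, was called, higher on arrays III than II by 1.27 (SE 0.16, limma adjusted p 0.0284), and it read 37.2 to 69.0 on arrays III, 31.6 to 46.5 on arrays I and 15.1 to 31.7 on arrays II.

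Of the oligodendrocyte lineage list, 1 gene passed the test between numerals. Myrf, the transcription factor that drives myelin genes, was higher on arrays III than II by 1.69 (SE 0.21, limma adjusted p 0.0274). Of the 15 lineage genes, 11 were positive in III minus II (median 0.46), 8 had an unadjusted p under 0.05, and they summed to 973 to 976 intensity units on arrays III, 691 to 840 on arrays I and 630 to 714 on arrays II. The part of these values in the marker differences was not tested.

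For the other classes no marker passed between numerals. Myh11 differed by 0.46 in III minus II and 0.61 in I minus II, and Gad1 by -0.60 in III minus II. Of the further lists, the smallest p-values belonged to Dcx, a gene of migrating young neurons, at 2.00 in III minus I (limma adjusted p 0.193), Abcc9, a pericyte channel subunit, at -1.74 in the same contrast (0.169), and Slc6a13, a GABA transporter gene of meningeal fibroblasts, at 1.57 in O4 minus NG2/A2B5 (1.0). Of the genes of other organs it was Tnp1, a gene of sperm nuclei, at -0.57 in III minus II (0.0721).

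Of the further lists, 5 of 9 astrocyte genes, 4 of 8 endothelial genes, 2 of 8 mural cell genes and 4 of 7 fibroblast genes lay above the line on all 9 arrays. In the same order, 4, 1, 2 and 3 of them lay above the array median on all 9. The further fibroblast genes had a median percentile rank of 52.5, against 18.7 for the 4 listed fibroblast markers.

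Over all 45 markers, the numeral held a median of 31.9% of the sum of squares and the population 18.0%, and the numeral share was the larger for 24 of 45 (53.3%). For all genes the medians were 34.2% and 21.2%, with the numeral larger for 61.1%. Among the 22 markers above the line on all 9 arrays the medians were 47.3% and 16.9%, against 40.1% and 20.9% for all genes above the line on all 9.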

How the data were processed

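The authors deposited 1 table of scaled probe intensity values on a linear scale for 35129 probes on 9 one-colour arrays. Per the labels' protocols, spiked RNAs were used for normalization, while scanner and software were not given in the sources used here. Values coded -9999 were treated as missing, and log2 was taken after raising values of 0 or less to the smallest positive value of their array. No further normalization was applied. Probes with 1 symbol (16865) were kept, those with several (165) or none (18099) left out. Symbols came from the platform annotation, updated by Entrez identifier through the RefSeq table of assembly GRCr8, used for names only (16836 matched, 1 updated).

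Population contrasts came from a limma 3.58.1 model (lmFit and eBayes, R 4.3.3) with population only (6 residual degrees of freedom, prior 1.76), and numeral contrasts and F test from a model with both terms (4, prior 1.55). Tests were two-sided. P-values were adjusted over all genes by Benjamini and Hochberg's method, with calls made under 0.05. The number of arrays limits the precision. No array pair was a duplicate: at most 3 genes had identical values in any pair, and rank correlations across genes lay between 0.966 and 0.984. The fits were also run on simulated data that held no spread between numerals. That run therefore does not measure what the population fit could detect in these arrays. Figures used matplotlib 3.10.9 in Python 3.11.15.

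The markers and all comparison lists were chosen with earlier results of these data known. The lists were further genes of 6 of the classes, oligodendrocyte lineage genes and genes of other organs. All measured markers could be named, by class. Values on every array were given for markers above the 25th percentile on all 9 arrays and for the 2 of each class with the smallest p. Of the other lists, the genes with the smallest p, those called, Sox10, Pdgfra, Cspg4, Mag, Mbp and the highest reading of the organ genes were named. Cd53 and C1qb are shown in more detail as the smallest population p-values among microglia markers.

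Alternatives were quantile normalization, a floor at the 25th percentile, a filter on dim genes, the mean of a gene's probes, trend and robust variance estimates (statmod 1.5.0), the numeral as a fixed or random block, only the 6 arrays compared, the array median in place of the 25th percentile, all probes of each marker, and leaving out each array.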

Additional observations from a re-analysis of the deposited data

How the results depend on the processing

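The count of 0 markers called in each population contrast held under every setting run, including those that left out 1 array. With the numeral as a fixed block and trend and robust estimates, the smallest marker limma adjusted p was 0.0593, in O4 against NG2. The numerals mark no shared origin in the labels. Deviations of same-numeral arrays correlated at 0.037 to 0.144, and of arrays with different numerals at -0.107 to 0.0065. With the numeral as a fixed replicate block the genes called were 0 in O4 against NG2 and 0 in O4 against NG2/A2B5, and with trend and robust estimates added they were 124 for the contrast of O4 with NG2 and 95 for that of NG2/A2B5 with NG2. At an unadjusted p under 0.05 the fixed block gave 12, 7 and 2 markers in O4 against NG2, O4 against NG2/A2B5 and NG2/A2B5 against NG2, where the fit without it gave 5, 5 and 1, and 1597, 738 and 1057 genes in place of 973, 399 and 545. For Gfap in O4 minus NG2 it narrowed the SE to 0.19 (limma adjusted p 0.298). In O4 against NG2 the main count of 1 was 0 with a floor at the 25th percentile, the dim filter, trend and robust estimates or only the 6 arrays compared, 2 with the mean of probes, and 1 to 2 without 1 array. In O4 against NG2/A2B5 it was 0 with the floor, the filter or trend and robust estimates, and 0 to 4 without 1 array. In NG2/A2B5 against NG2 it was 1 with the mean of probes and 0 to 3 without 1 array. The numeral F test called 918 genes with the floor, 823 with the filter, 36 with the mean of probes, 1821 with trend and robust estimates and 0 to 2 without 1 array. It called 2 markers after quantile normalization (Gfap and Vwf), 3 with the floor (Gja1, Nes and Vwf), 4 with the filter (Gfap, Gja1, Nes and Vwf), 7 with trend and robust estimates (Gad1, Gfap, Gja1, Myh11, Nes, Vim and Vwf) and 0 in each fit without 1 array. The III minus II calls of Vwf, Gfap and Nes held under the 5 other settings, and Vwf in I minus II had a limma adjusted p of 0.0708 with the mean of probes. C1qa in III minus II was -0.087 with the floor, a difference between floors alone because its readings all lay under them. Markers above the line on all 9 arrays numbered 22 to 23 without 1 array and 10 with the array median as the line. The main count of 22 rested on the brightest probe of each gene. In 7 of the 22, another probe lay under the line on at least 1 array. Class medians of the log2 ratio to the line were, for microglia, astrocyte, neuron, muscle enolase, endothelium, mural cell, fibroblast and progenitor markers, -0.29, 1.497, 1.25, 3.44, 1.86, 0.43, -0.20 and 7.90. With the array median they were -2.53, -0.74, -0.99, 1.21, -0.38, -1.81, -2.44 and 5.66, and with all probes 0.55 for astrocyte, 0.87 for neuron, 0.95 for endothelium, -0.013 for mural cell and 5.76 for progenitor markers. The cause of these shifts was not tested, except that the median is by construction a higher line. Signal near the dim end of the arrays limits most microglia, fibroblast and mural cell markers.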
